A study of Mus musculus with 29 samples.

Results

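The 9 genes described here, Slc13a3, Ehd2, Otx1, Dnah12, Col5a3, Otogl, Kcnk10, Plk2 and Slco4a1, were chosen by name from 55414 gene identifiers because their RNA was much lower with TGF-beta at 24 or 72 h in these same libraries. That fall is therefore the way in which they were chosen and not a finding, and no threshold came with the choice. The cells were CD4+ T cells from the spleens of C57BL/6-Foxp3tm1Flv/J mice, in which a red fluorescent protein reports Foxp3. They were stimulated in 0.5 mM glucose medium with 50 uM mercaptoethanol, 50 IU/ml IL-2, anti-CD3 at 1.25 ug/ml and anti-CD28 at 2.5 ug/ml, and then sorted as reporter-positive cells (Treg) or reporter-negative cells (Tcon). At 72 h there were Treg with TGF-beta (3 ng/ml) and 10 mM lactic acid (n = 3 libraries), Treg with TGF-beta (n = 3), Tcon with TGF-beta and lactic acid (n = 3), Tcon with TGF-beta (n = 3), Tcon with lactic acid (n = 3) and Tcon with neither (n = 2). At 24 h there were Tcon in the same 4 media, with 3 libraries each. All Treg libraries came from cultures with TGF-beta, and Treg without it were not analysed here. The labels give the mice as male for replicate 1 and as female for replicates 2 and 3, with no age. No label says that replicates 2 and 3 came from separate animals, so p-values measure the spread between these libraries.

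TGF-beta binds a pair of receptor kinases on the cell surface, which phosphorylate SMAD proteins. These enter the nucleus, bind DNA with partners and raise some genes while lowering others. In naive CD4+ T cells stimulated through the T cell receptor, TGF-beta is known for inducing Foxp3 and for restraining effector cytokines. The 9 genes are not a known pathway. They encode 2 membrane transporters (Slc13a3, Slco4a1), a potassium channel (Kcnk10), a kinase (Plk2), a transcription factor (Otx1), a membrane-remodelling ATPase (Ehd2), and proteins best known from other tissues: a collagen chain (Col5a3), an axonemal dynein (Dnah12) and an inner-ear glycoprotein (Otogl).

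Gene counts per library ranged from 9754511 to 14315313 (median 12106958). Levels are given as CPM, gene counts scaled to the TMM-adjusted library size. All 9 genes passed the filter on low counts, which left 14375 genes. The sort labels could be read in Foxp3, which averaged 468 CPM in Treg with TGF-beta and lactic acid and 224 CPM in Treg with TGF-beta, against 48.2 and 23.4 CPM in Tcon with the same media. The first 2 principal components carried 52.3% and 20.3% of the variance, and the third (7.78%) set the 72 h replicate 1 libraries (6.51 to 51.6) apart from the other 72 h libraries (-34.9 to -5.38). Marker genes of CD4 T cells summed to 2538 to 3553 CPM in the 5 libraries at 72 h without TGF-beta, against 2656 to 3767 CPM in the other 24. The sums there and in the other 24 were 83.8 to 134 and 85.5 to 297 CPM for B cell markers, 45.3 to 136 and 91.3 to 248 CPM for CD8 and natural killer markers, 0.453 to 1.31 and 0.164 to 1.73 CPM for myeloid markers, 0 to 0.579 and 0 to 0.365 CPM for erythroid markers, and 17.2 to 24.6 and 16 to 68.1 CPM for endothelial markers, nearly all of it Pecam1, with Emcn at 0. In bulk samples, fewer cells of a type and less RNA per cell cannot be told apart.

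All 9 genes were alike in where they were highest, while the order of the other groups differed between them. Each was at its highest in Tcon kept for 72 h without TGF-beta, and for each gene all 5 libraries of that kind lay above all 24 others. Of all genes tested, 4.01% did so, but the choice of members fixes much of this, so nothing is read from it. The 5 libraries are the Tcon at 72 h with lactic acid and with neither addition. The contrasts that chose the genes used Tcon libraries of both media, with and without lactic acid, and no Treg library.

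**Figure D1:**
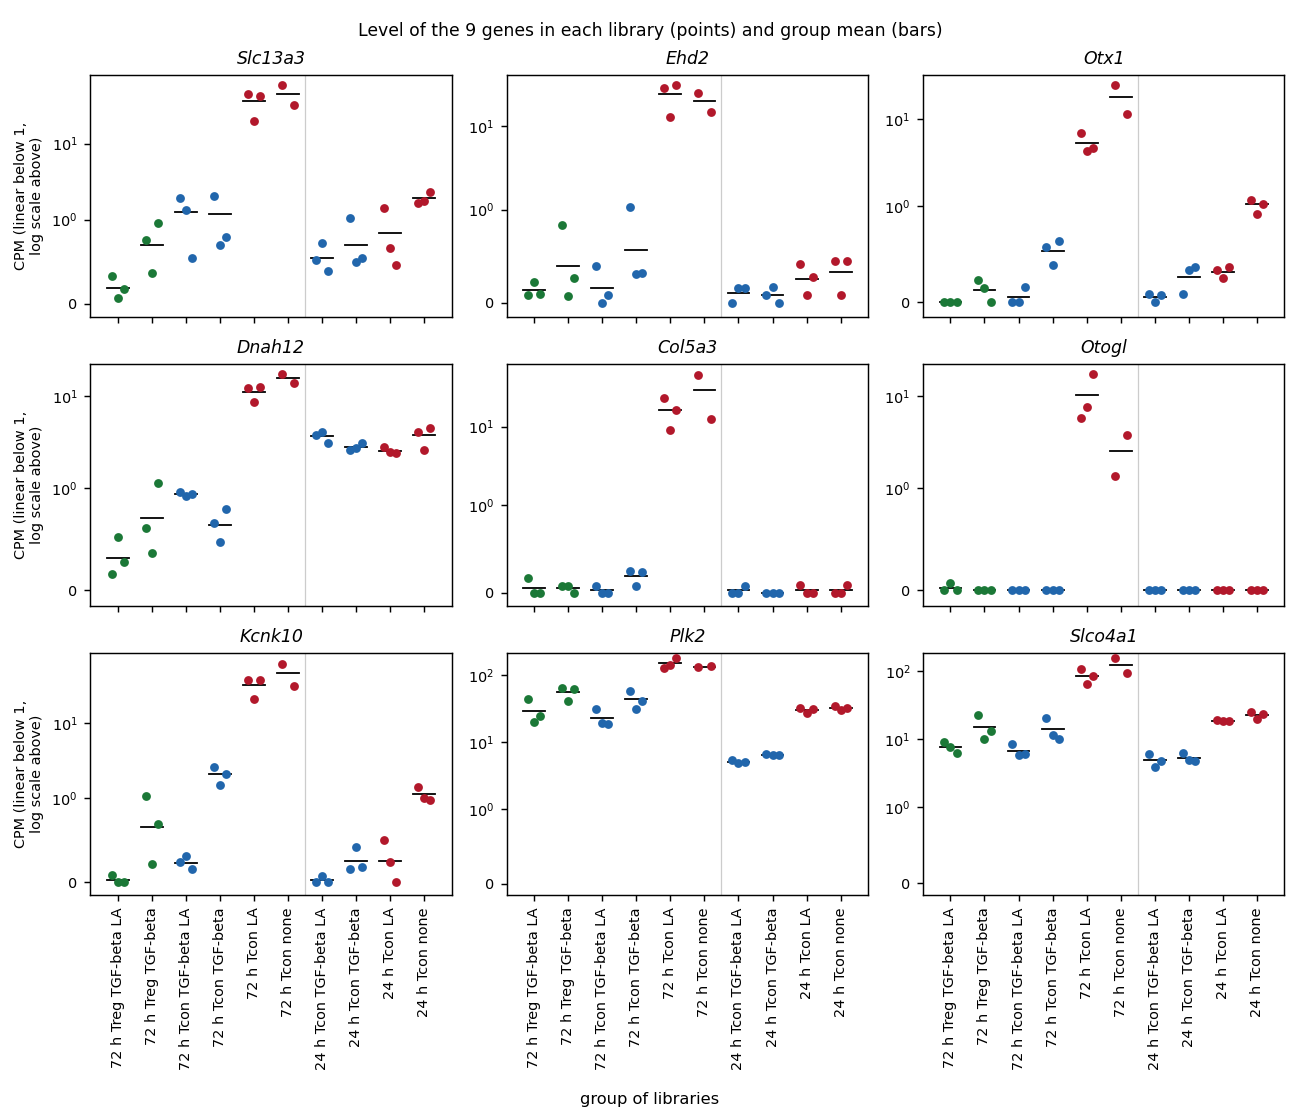
CPM of each gene in each library (points) and the group mean (bars); the axis is linear below 1 CPM and logarithmic above, groups run from 72 h (left of the grey line) to 24 h, red marks cultures without TGF-beta, blue Tcon and green Treg with it. In every panel the 5 red points at 72 h are the highest, while Plk2 and Slco4a1 are also set apart by TGF-beta at 24 h.

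Start-site sequences were looked up to show the DNA from which these genes are read. RefSeq (GRCm38.p6) gave 9 start sites for 7 of the 9 genes, and Otx1 and Otogl are named only. The 250 bases before each start were searched on both strands for CAGAC, the short box that SMAD proteins bind, for the TGF-beta inhibitory element, for the AP-1 motif TGANTCA and the NFAT motif TGGAAAA, both used in T cell activation, and for TATAAA, the TATA box. The CAGAC box occurred before 4 of the 7 genes, and it also occurs in 42.2% of the 32851 promoters in the table. The genes that hold it are shown first, with the box or its reverse complement in capitals:
Slc13a3 (chr2:165473198-165473447, minus strand): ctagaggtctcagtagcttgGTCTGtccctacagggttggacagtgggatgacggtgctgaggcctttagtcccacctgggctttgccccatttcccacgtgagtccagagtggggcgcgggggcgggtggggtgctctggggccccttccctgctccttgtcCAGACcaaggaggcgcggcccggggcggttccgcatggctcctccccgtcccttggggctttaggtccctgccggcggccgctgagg
Ehd2 (chr7:15967536-15967785, minus strand): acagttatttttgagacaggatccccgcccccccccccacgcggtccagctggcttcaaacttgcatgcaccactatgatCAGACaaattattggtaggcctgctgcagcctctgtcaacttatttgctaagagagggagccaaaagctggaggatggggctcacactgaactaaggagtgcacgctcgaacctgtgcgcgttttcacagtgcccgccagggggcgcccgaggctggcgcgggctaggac
Kcnk10 (chr12:98578214-98578463, minus strand): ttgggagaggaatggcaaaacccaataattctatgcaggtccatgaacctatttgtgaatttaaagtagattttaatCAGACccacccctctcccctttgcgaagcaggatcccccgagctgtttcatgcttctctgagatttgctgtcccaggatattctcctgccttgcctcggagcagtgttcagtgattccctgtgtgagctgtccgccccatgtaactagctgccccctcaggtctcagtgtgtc
Plk2 (chr13:110394794-110395043, plus strand): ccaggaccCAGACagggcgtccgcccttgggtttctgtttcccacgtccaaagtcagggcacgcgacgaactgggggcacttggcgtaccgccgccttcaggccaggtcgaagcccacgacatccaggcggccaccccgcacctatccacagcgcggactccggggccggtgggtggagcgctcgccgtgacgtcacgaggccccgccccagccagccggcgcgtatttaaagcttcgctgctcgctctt
The box of Slc13a3 occurred on each strand, and the other start site of Kcnk10 held it too. The inhibitory element, the AP-1 motif and the NFAT motif were in none of the 9 windows, against 0.792%, 6.75% and 5.93% of all promoters. Dnah12 was the only one of the 7 with the letters TATAAA anywhere in this window, as 12.4% of all promoters have. In Dnah12 they lie far upstream of the start, and whether they act as a TATA box was not tested. Capitals in the Dnah12 window mark overlapping matches on both strands:
Dnah12 (chr14:26691304-26691553, plus strand): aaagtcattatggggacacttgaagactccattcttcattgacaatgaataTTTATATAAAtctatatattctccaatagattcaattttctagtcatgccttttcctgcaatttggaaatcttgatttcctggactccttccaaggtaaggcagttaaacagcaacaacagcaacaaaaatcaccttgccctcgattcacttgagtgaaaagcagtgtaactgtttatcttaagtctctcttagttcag
These matches describe letters in a window, and no binding was measured.

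Slc13a3 encodes a sodium-coupled transporter that carries dicarboxylates such as succinate and alpha-ketoglutarate into the cell. At 72 h its level was 1.92, 1.34 and 0.549 CPM in Tcon with TGF-beta and lactic acid, against 44.9, 19.7 and 42.9 CPM with lactic acid alone. The libraries with TGF-beta alone had 2.05, 0.703 and 0.792 CPM, against 58.7 and 32.3 CPM with neither addition. The groups were far apart in both media, by 28.1-fold and 38.4-fold lower fitted levels with TGF-beta. At 24 h the gene was low throughout, with a median of 0.532 CPM (0.393 to 1.06 CPM) over the 6 libraries with TGF-beta and 1.53 CPM (0.455 to 2.31 CPM) over the 6 without. In lactic acid medium the groups overlapped, at 0.517, 0.717 and 0.393 CPM with TGF-beta, against 1.42, 0.657 and 0.455 CPM without it. With no lactic acid they did not, at 1.06, 0.502 and 0.548 CPM with TGF-beta, against 1.63, 1.76 and 2.31 CPM without it.

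Slco4a1 encodes an organic anion transporter that takes up thyroid hormones and prostaglandins. Slco4a1 at 72 h stood at 8.38, 5.96 and 5.96 CPM in Tcon with TGF-beta and lactic acid, against 107, 63.3 and 84.4 CPM with lactic acid alone. Without lactic acid, TGF-beta libraries had 20.5, 11.5 and 9.90 CPM, against 153 and 93.7 CPM with neither. TGF-beta libraries were thus 12.5-fold and 8.86-fold lower. At 24 h it was separated in both media, at 3.90 to 6.36 CPM over the 6 libraries with TGF-beta and 18.1 to 24.8 CPM over the 6 without, a 3.80-fold lower level with lactic acid and a 4.19-fold lower level without.

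Kcnk10 encodes a background potassium channel of the TREK group, whose opening responds to membrane stretch and pH. Kcnk10 at 72 h stood at 0.239, 0.308 and 0.157 CPM in Tcon with TGF-beta and lactic acid, against 37.4, 21.0 and 36.6 CPM with lactic acid alone. Kcnk10 with TGF-beta alone stood at 2.63, 1.48 and 2.14 CPM, against 61.2 and 30.9 CPM with neither. The level with TGF-beta was 132-fold lower in lactic acid medium and 22.03-fold lower without it. At 24 h it had 0.163, 0.418 and 0.183 CPM with TGF-beta alone, against 1.41, 1.00 and 0.978 CPM with neither, and these groups did not overlap. In lactic acid medium at 24 h it had 0, 0.0797 and 0 CPM with TGF-beta, against 0.502, 0.246 and 0 CPM without it, and these did. Whether the effect of TGF-beta differed between the 2 media was not tested, since these contrasts chose the gene.

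Plk2 encodes a polo-like kinase that is induced by serum and by p53 and that acts in centriole duplication and stress responses. It was the most abundant of the 9, also per length, with up to 53.9 CPM per kilobase of exon as a group mean, against 38.2 for Slco4a1, 12.9 for Slc13a3 and at most 6.51 for the other 6. Plk2 at 72 h stood at 31.2, 19.4 and 18.5 CPM in Tcon with TGF-beta and lactic acid, against 128, 143 and 183 CPM with lactic acid alone. Plk2 with TGF-beta alone stood at 58.7, 31.7 and 41.4 CPM, against 132 and 137 CPM with neither. These 6.54-fold and 3.06-fold lower levels made Plk2 the member with the smallest difference at 72 h. At 24 h it was tightly separated, at 4.94 to 6.68 CPM over the 6 libraries with TGF-beta and 27.8 to 34.9 CPM over the 6 without, which is 5.96-fold lower with lactic acid and 5.02-fold lower without.

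Otx1 encodes a homeobox transcription factor of brain and sensory organ development. At 72 h it had 0, 0 and 0.157 CPM in Tcon with TGF-beta and lactic acid, against 6.89, 4.27 and 4.66 CPM with lactic acid alone. As 2 counts stood against 192, the level was 90.6-fold lower with TGF-beta (exact 95% counting interval of the ratio of TGF-beta to lactic acid alone 0.00133 to 0.0404). Otx1 with TGF-beta alone had 0.575, 0.391 and 0.634 CPM, against 24.7 and 11.6 CPM with neither, which is 33.5-fold lower. At 24 h it had 0.0815, 0.335 and 0.365 CPM with TGF-beta alone, against 1.19, 0.920 and 1.07 CPM with neither. In lactic acid medium at 24 h it had 0.0861, 0 and 0.0786 CPM with TGF-beta, against 0.334, 0.246 and 0.364 CPM without it, and the groups did not overlap in either medium.

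Ehd2 encodes an ATPase that sits at the neck of caveolae, small flask-shaped pits of the plasma membrane, and holds them in place. Ehd2 at 72 h stood at 0.399, 0 and 0.0785 CPM in Tcon with TGF-beta and lactic acid, against 28.2, 12.8 and 30.6 CPM with lactic acid alone. Ehd2 with TGF-beta alone stood at 1.07, 0.313 and 0.317 CPM, against 24.7 and 14.6 CPM with neither. The fitted levels with TGF-beta were 132-fold and 34.4-fold lower. All 12 libraries at 24 h lay at or below 0.445 CPM, so Ehd2 RNA was close to the detection limit there whatever the medium.

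Col5a3 encodes a chain of type V collagen, a fibrillar collagen of connective tissue. At 72 h it had 0.0798, 0 and 0 CPM in Tcon with TGF-beta and lactic acid, against 23.2, 8.97 and 16.2 CPM with lactic acid alone. That is 1 count against 578, a 545-fold lower level (ratio 0.00183, exact 95% counting interval 4.63e-05 to 0.0103). Col5a3 with TGF-beta alone had 0.246, 0.0781 and 0.238 CPM, against 46.0 and 12.5 CPM with neither, which is 149-fold lower. Nearly all Col5a3 counts of the series, 1279 of 1294, came from the 5 libraries at 72 h without TGF-beta. Marker genes of fibroblasts, a common source of collagen, summed to 1.37 to 2.99 CPM in those 5 libraries and to 0 to 1.55 CPM in the other 24. Of these 7 markers Dcn was at 0 in every library and Lum and Pdgfra did not exceed 0.171 CPM, while Col1a1 reached 1.80 CPM, and their part in the result was not tested.

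Dnah12 encodes an axonemal dynein heavy chain, a motor of motile cilia and sperm tails. Dnah12 at 72 h stood at 0.958, 0.924 and 0.942 CPM in Tcon with TGF-beta and lactic acid, against 12.1, 8.53 and 12.6 CPM with lactic acid alone. Dnah12 with TGF-beta alone stood at 0.657, 0.469 and 0.792 CPM, against 17.4 and 13.9 CPM with neither. These are 11.6-fold and 24.1-fold lower levels. At 24 h its 6 libraries with TGF-beta spanned 2.61 to 4.06 CPM and its 6 without 2.37 to 4.45 CPM. In lactic acid medium the 3 libraries with TGF-beta (3.79, 4.06 and 3.07 CPM) even lay above the 3 without (2.76, 2.46 and 2.37 CPM). Marker genes of ciliated cells summed to 1.66 to 5.39 CPM in the 5 libraries at 72 h without TGF-beta and to 0 to 4.27 CPM in the other 24. Of the 6 matched markers Foxj1 reached 4.71 CPM, while the dynein Dnah5 stayed at or below 0.0786 CPM, and their part in the result was not tested.

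Otogl encodes otogelin-like, a glycoprotein of the acellular membranes of the inner ear. It had 446 counts in the 5 libraries at 72 h without TGF-beta and 1 count in all 24 others. Its libraries with lactic acid alone had 5.80, 7.59 and 17.3 CPM and those with neither 1.37 and 3.76 CPM. Against 3 counts over the 3 TGF-beta libraries, which had none, the level with TGF-beta was at least 120-fold lower in lactic acid medium and at least 33.0-fold lower without it.

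As a description, 9 of 9 genes passed the test for lower levels with TGF-beta at 72 h both with lactic acid (45% of all genes tested were called, 22.5% as lower) and without it (24.5% called, 11.7% as lower). At 24 h, Plk2 and Slco4a1 did with lactic acid (12.4% called, 4.38% as lower), and these with Otx1 and Kcnk10, 4 of 9, without it (11.3% called, 3.35% as lower). Nothing is read from these counts, since the same contrasts chose the genes.

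**Figure D2:**
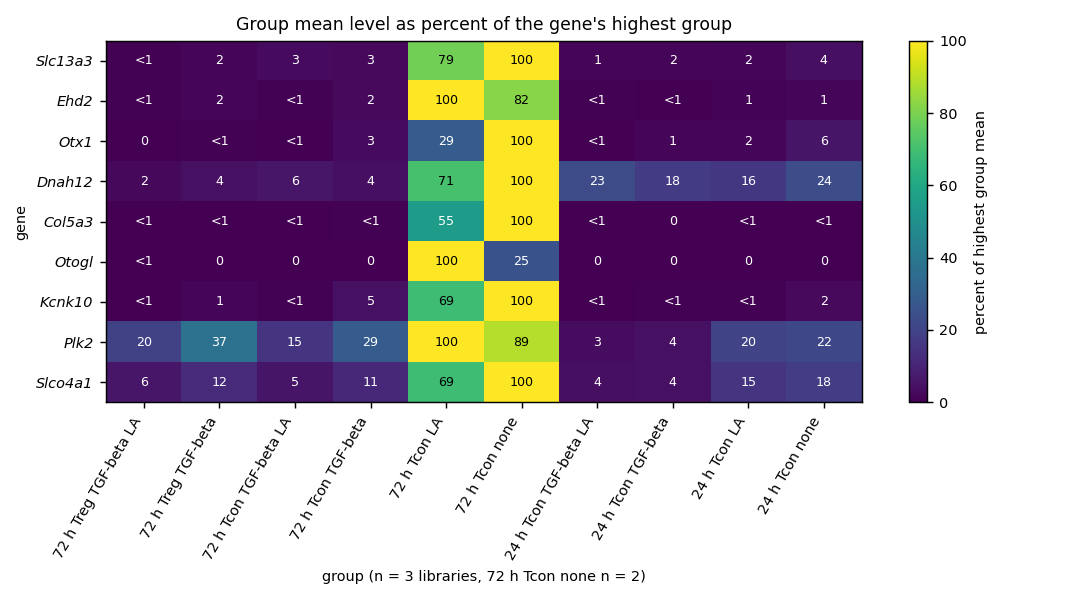
Group mean level of each gene (rows) in each group (columns) as percent of the gene's highest group mean, colour and number giving the percent. Plk2, Slco4a1 and Dnah12 keep 15% to 24% of their highest level at 24 h without TGF-beta, and Plk2 keeps 37% of it in Treg with TGF-beta, while Col5a3 and Otogl are at or below 1% outside the 2 highest groups.

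Relatives of the 9 genes were taken from family lists and not picked for how they moved. Since the 9 were chosen for their falls in these contrasts, nothing is read from their lying beyond their relatives. Of the EHD family, Ehd4, which acts in endosomal traffic, fell with TGF-beta at 72 h by 1.32 ± 0.12 on the log2 scale with lactic acid (adjusted p = 1.35e-08, edgeR's quasi-likelihood test, as are all adjusted p-values here) and by 1.22 ± 0.13 without it (adjusted p = 4.06e-07). With lactic acid Ehd1 also fell and Ehd3 rose, which leaves 1 of 3 tested relatives higher and 2 lower there, and 0 higher and 1 lower without. Of the 9 listed caveola components 5 could be tested, and Cavin3, a coat protein of caveolae, was the 1 that fell at 72 h, by 4.94 ± 0.55 with lactic acid (adjusted p = 6.98e-07) and by 3.57 ± 0.47 without (adjusted p = 1.19e-05). Its mean level was 0.192 and 0.827 CPM with TGF-beta, against 6.42 and 9.91 CPM in the matching media without it, while Cav1, the main caveolin outside muscle, did not exceed a group mean of 0.0272 CPM.

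Among the dynein heavy chains 7 of 17 relatives could be tested. Dnah8, an axonemal dynein of sperm, rose at 72 h by 3.09 ± 0.39 with lactic acid (adjusted p = 9.64e-07) and by 2.39 ± 0.44 without (adjusted p = 0.000256), opposite to Dnah12, and no other was called at either time. Among the fibrillar collagens 6 of 10 relatives could be tested. With TGF-beta at 72 h without lactic acid Col27a1 fell by 2.16 ± 0.42 (adjusted p = 0.000476) and Col11a2 fell too, whereas Col5a1, which encodes the partner chain of the same type V collagen, rose by 1.98 ± 0.51 (adjusted p = 0.00542). With lactic acid no fibrillar relative was called. Among the K2P channels 3 of 13 relatives could be tested, and Kcnk6 rose at 72 h by 2.24 ± 0.21 with lactic acid (adjusted p = 1.17e-08) and by 1.85 ± 0.23 without (adjusted p = 2.61e-06).

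Among the polo-like kinases 3 of 4 relatives could be tested. Plk3, a stress-responsive relative, fell at 72 h by 1.19 ± 0.17 with lactic acid (adjusted p = 7.94e-06) and by 0.77 ± 0.19 without (adjusted p = 0.00398), while the mitotic kinase Plk1 was not called in any TGF-beta comparison. The 2 tested SLCO relatives were not called either, and none of 4 SLC13 and 7 OTX-related genes had enough counts to test. The only tested relative of Otogl, the mucin Muc2, rose at 72 h with lactic acid. The median log2 change over all genes lay between -0.03 and 0.01 in these comparisons.

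**Figure D3:**
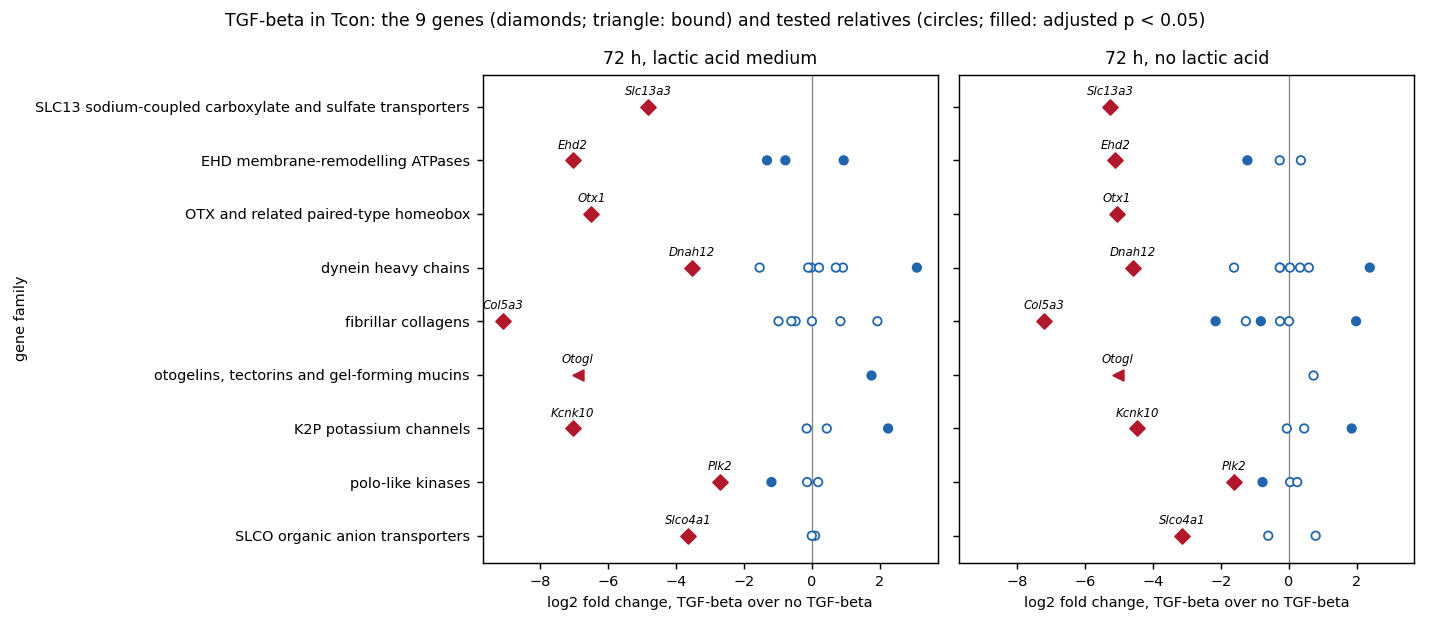
Log2 fold change with TGF-beta in Tcon at 72 h, in lactic acid medium (left) and without it (right), for the 9 genes (red diamonds; a triangle marks a lower bound on the size of the fall) and for tested relatives of their families (blue circles, filled where the adjusted p was below 0.05). The red marks lie left of the tested relatives because the 9 genes were chosen for these falls; among the relatives, filled circles lie on both sides of 0.

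Genes with a textbook response to TGF-beta were counted beside them. Of 16 genes that TGF-beta is known to induce, 9 rose and 1 fell at 72 h with lactic acid and 11 rose and 2 fell without it. Foxp3 rose by 9.05 ± 0.57 and 7.09 ± 0.65 in these media (adjusted p = 2.20e-11 and 2.44e-08). Its means without TGF-beta were only 0.0723 and 0.154 CPM, where a few counts set the size of the rise. Itgae, an integrin chain of tissue-resident T cells, rose by 6.16 ± 0.34 and 5.77 ± 0.38 (adjusted p = 2.68e-12 and 1.59e-10). Of 19 genes that TGF-beta is known to repress in T cells, 12 fell and 1 rose with lactic acid, and 11 fell and 1 rose without. Il2, the T cell growth factor, fell by 6.53 ± 0.65 and 3.82 ± 0.56 (adjusted p = 3.24e-08 and 1.86e-05), a size within the range of the 9 genes. Of 15 tested p53 targets, a class that also includes Plk2, 9 fell and 1 rose with lactic acid, and 3 fell and 0 rose without. Tnfrsf10b, a death receptor, fell by 1.28 ± 0.26 and 0.79 ± 0.28 (adjusted p = 0.000311 and 0.0382). The target Trp53inp1 went the other way, with means of 353 and 401 CPM with TGF-beta, against 60.3 and 115 CPM in the matching media without it.

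Kcnk10 and Plk2 were lower with lactic acid in cells that also had TGF-beta. At 72 h, 2 of 9 genes fell in Tcon with TGF-beta (2.16% of all genes were called, 1.42% as lower) and the same 2 fell in Treg (3.51% called, 2.02% as lower). The Treg libraries had no part in choosing the genes, whereas the Tcon libraries with TGF-beta did. Kcnk10 in Treg had 0.0817, 0 and 0 CPM with lactic acid, against 1.06, 0.221 and 0.695 CPM without, which is 1 count against 25 (24.0-fold lower; ratio 0.0416, exact 95% counting interval 0.00101 to 0.254; adjusted p = 0.0249). In Tcon its values with and without lactic acid, listed above, fell by 3.13 ± 0.59 on the log2 scale (8.73-fold lower, adjusted p = 0.00457). All 3 libraries with lactic acid lay below all 3 without in both populations, as they did for 3 of 9 genes in Treg (8.74% of all genes) and 4 of 9 in Tcon (8.37%).

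Plk2 in Treg had 44.3, 20.2 and 25.0 CPM with lactic acid, against 64.4, 41.1 and 63.1 CPM without. It fell by 0.91 ± 0.24 (1.88-fold lower, adjusted p = 0.0347), although the highest library with lactic acid lay above the lowest without. In Tcon with TGF-beta it fell by 0.93 ± 0.24 (1.90-fold lower, adjusted p = 0.0460), and the groups did not overlap. Slco4a1 had 9.07, 7.75 and 6.19 CPM with lactic acid in Treg, against 22.5, 10.1 and 13.2 CPM without. It did not pass the test in Treg (log2 change -0.99 ± 0.29, adjusted p = 0.0590) or Tcon (-1.04 ± 0.29, adjusted p = 0.0659), although no library with lactic acid reached any without in either, and DESeq2 called it in both (adjusted p = 0.0226).

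Same-numbered libraries tended to vary together within a time point, so the replicate number was also fitted as a block. At 72 h they did not do so more than differently numbered libraries in every comparison, so the block calls rest on a pairing that is not certain. Then 3 of 9 genes fell with lactic acid in Treg (19.7% of all genes called, 1408 of 14375 genes as lower). In Tcon with TGF-beta 4 of 9 fell (15.4% called, 1248 of 14375 genes as lower). The added genes were Slco4a1 in both (adjusted p = 6.37e-05 in Treg and 5.51e-05 in Tcon) and Otx1 in Tcon (adjusted p = 0.00910, against 0.0589 without the block), where 2 counts with lactic acid stood against 20 without. The Plk2 call in Tcon held in 2 of 6 fits that left out 1 library, and those of Plk2 and Kcnk10 in Treg in 2 of 6 each, while the Kcnk10 call in Tcon held in 6 of 6. The Plk2 call in Tcon was lost without replicate 1 or 3 of TGF-beta alone (adjusted p = 0.317 and 0.0833) or without replicate 2 or 3 with lactic acid (0.255 and 0.202). In Treg both calls were lost without replicate 1 or 3 of TGF-beta alone (Kcnk10 0.168 and 0.0569, Plk2 0.168 and 0.109) or without replicate 2 or 3 with lactic acid (Kcnk10 0.161 and 0.0997, Plk2 0.246 and 0.163). The difference between the lactic acid effects in Treg and Tcon was tested directly, and it was called for 0 of 9 genes and for 0% of all genes by edgeR (381 had an unadjusted p below 0.05) and for 0 genes by DESeq2.

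Without TGF-beta, lactic acid moved none of the 9 genes past the threshold in the fit with no block. The fit with the replicate block called some of them at both times. At 72 h 0 of 9 were called (0.0696% of all genes; 1289 genes had an unadjusted p below 0.05, and DESeq2 called 1 of the 9). Otx1 stood at 6.89, 4.27 and 4.66 CPM with lactic acid, against 24.7 and 11.6 CPM with neither, a log2 change of -1.79 ± 0.36 (adjusted p = 0.0562). With the replicate block it fell by 1.69 ± 0.24 (adjusted p = 0.000378), and with DESeq2 its adjusted p was 0.0120. The block called 5 of 9 genes there (3.42% of all genes): Otx1, Col5a3, Kcnk10 and Slco4a1 lower, and Otogl higher by 1.46 on the log2 scale (adjusted p = 0.0380; 0.953 with DESeq2 and no block). Otogl was thus the only gene of the 9 whose 3 libraries with lactic acid alone lay above both libraries with neither. With 2 libraries on 1 side, Col5a3 and Kcnk10 changed direction when replicate 1 with neither addition was left out.

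At 24 h without TGF-beta, 0 of 9 genes were called (0.0835%; 1027 genes had an unadjusted p below 0.05), and DESeq2 called 0 of the 9. Kcnk10 had 0.502, 0.246 and 0 CPM with lactic acid, against 1.41, 1.00 and 0.978 CPM with neither. Otx1 had 0.334, 0.246 and 0.364 CPM with lactic acid, against 1.19, 0.920 and 1.07 CPM with neither. The libraries with lactic acid lay below those with neither without overlap for 4 of 9 genes, these and Slc13a3 and Slco4a1, as for 10.4% of all genes. The block called Kcnk10 and Otx1 lower (adjusted p = 0.0102 and 0.0377), in a fit that called 4.27% of all genes, 165 of 14375 as lower. At 24 h with TGF-beta 0 of 9 were called (0.23%; 1197 genes had an unadjusted p below 0.05), with 0 of the 9 under the block (6.7% of all genes) and with DESeq2.

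**Figure D4:**
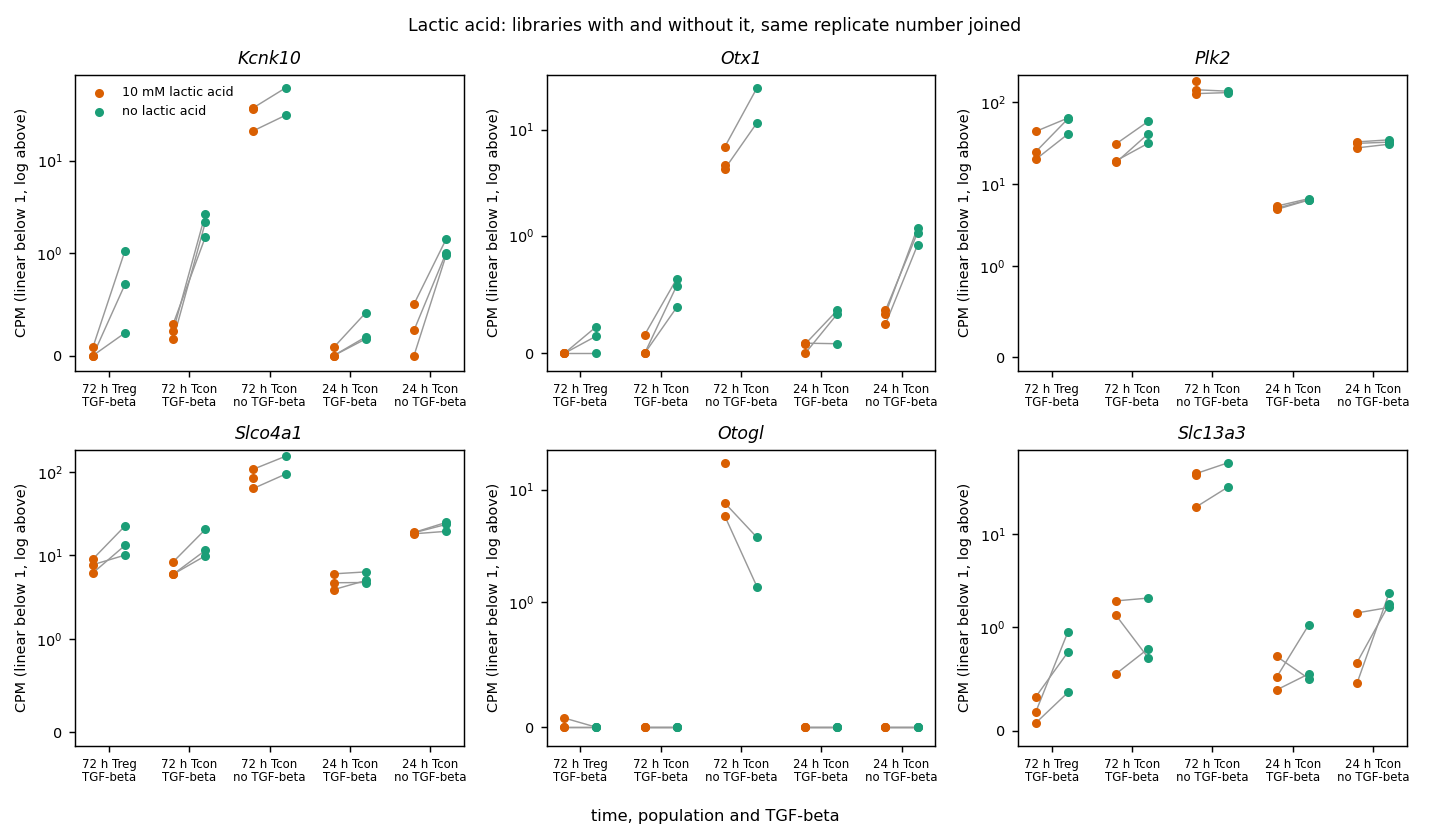
CPM of 6 genes with 10 mM lactic acid (orange, left of each pair) and without it (green), in 5 settings; grey lines join libraries with the same replicate number, and the axis is linear below 1 CPM and logarithmic above. The lines of Kcnk10 and Slco4a1 slope upward to the right in every pair of all 5 settings, those of Plk2 in all but 1 pair at 72 h without TGF-beta and those of Otx1 in all but 1 pair at 24 h with TGF-beta and 1 level pair in Treg, while both Otogl lines slope the other way at 72 h without TGF-beta.

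All Treg cultures held TGF-beta, so the Treg were compared with Tcon of the same medium only. With TGF-beta alone, 0 of 9 genes were called between Treg and Tcon (0.216% of all genes; 809 genes had an unadjusted p below 0.05, and DESeq2 called 0 of the 9). Kcnk10 had 1.06, 0.221 and 0.695 CPM in Treg, against 2.63, 1.48 and 2.14 CPM in Tcon. It was not called (log2 change -1.65 ± 0.48, adjusted p = 0.275), but the groups did not overlap. The block called Kcnk10 lower (adjusted p = 0.00408, with 2.94% of all genes called, 215 of 14375 as lower). Of the 9 genes, 3 lay lower in Treg without overlap (4.81% of all genes). With TGF-beta and lactic acid, 2 of 9 genes fell in Treg (2.55% called, 1.27% as lower). Slc13a3 had 0.327, 0.0738 and 0.182 CPM in Treg, against 1.92, 1.34 and 0.549 CPM in Tcon, and fell by 2.66 ± 0.72 (adjusted p = 0.0479). Dnah12 had 0.163, 0.517 and 0.273 CPM in Treg, against 0.958, 0.924 and 0.942 CPM in Tcon, and fell by 1.51 ± 0.40 (adjusted p = 0.0451). The block called both as well (adjusted p = 0.00502 and 0.0263, with 12.7% of all genes called, 826 of 14375 as lower). In that medium 3 of 9 genes lay lower in Treg without overlap (8.63% of all genes).

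Each of these calls held in 1 of 6 fits that left out 1 library. That of Slc13a3 was lost without replicate 1, 2 or 3 of Treg (adjusted p = 0.0601, 0.283 and 0.151) or replicate 1 or 2 of Tcon (0.262 and 0.115), and that of Dnah12 without replicate 1 or 3 of Treg (0.166 and 0.165) or replicate 1, 2 or 3 of Tcon (0.1245, 0.101 and 0.110).

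The 72 h libraries with and without TGF-beta are the ones whose difference chose the genes, so a rise over time without TGF-beta and a smaller rise or a fall with it are largely fixed by the choice and are given as a description. Without TGF-beta all 9 rose at 72 h against 24 h, both in lactic acid medium (46.6% of all genes called, 26.5% as higher) and with neither addition (45.5%, 27.1% as higher). The rises ran from 4.35-fold for Dnah12 to 119-fold for Kcnk10 in lactic acid medium among the genes with more than 3 counts at 24 h. Otogl, with no counts at 24 h, was at least 120-fold higher at 72 h with lactic acid and at least 32.2-fold higher with neither, and DESeq2 did not call it (adjusted p = 0.262 and 0.450).

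With TGF-beta and lactic acid 1 of 9 genes rose and 1 fell between 24 and 72 h (47.4% of all genes called, 24.4% as higher and 23% as lower), and with TGF-beta alone 4 rose and 1 fell (52.8%, 28% as higher and 24.8% as lower). Plk2 rose in both, by 2.16 ± 0.28 with lactic acid (adjusted p = 9.37e-07) and by 2.75 ± 0.27 without (adjusted p = 1.65e-08). Slco4a1 rose by 1.37 ± 0.30 with TGF-beta alone (adjusted p = 0.000591) and Kcnk10 by 2.97 ± 0.58 (adjusted p = 0.000173). Ehd2 had 21 counts at 72 h against 3 at 24 h (6.55-fold, exact 95% counting interval 1.96 to 34.3, adjusted p = 0.0407), and its call was lost without replicate 1 at 72 h (adjusted p = 0.242) or replicate 1 or 3 at 24 h (0.0914 and 0.123).

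Dnah12 went the other way. With TGF-beta and lactic acid it had 0.958, 0.924 and 0.942 CPM at 72 h, against 3.79, 4.06 and 3.07 CPM at 24 h, a fitted log2 change of -1.94 ± 0.29. With TGF-beta alone it had 0.657, 0.469 and 0.792 CPM at 72 h, against 2.61, 2.68 and 3.11 CPM at 24 h, a fitted log2 change of -2.11 ± 0.31. At 72 h Dnah12 thus lay below its 24 h level with TGF-beta and above it without.

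In the order of group means, the highest 2 groups were those at 72 h without TGF-beta for each gene, and their ranges overlapped for 6 of 9 genes. The libraries with lactic acid lay lower without overlap for Otx1 and Dnah12 (9% of all genes) and higher for Otogl (8.05%). Tcon at 24 h with neither addition came next for Slc13a3, Otx1, Dnah12 and Slco4a1, 72 h Tcon with TGF-beta alone for Ehd2, Col5a3 and Kcnk10, 72 h Treg with TGF-beta alone for Plk2, and 72 h Treg with both additions for Otogl, on 1 count. Neighbours further down overlapped in most cases. Over the 10 group means on the log2 scale, Pearson's r between pairs of the 9 genes ran from 0.295 (Dnah12 and Plk2) to 0.985 (Ehd2 and Col5a3), with a median of 0.891 over 36 pairs. The groups share media, replicate numbers and the same 2 high points, so these values describe the shape only.

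By the same measure the genes most like each member were Ctbp2, Calcrl and Gm21013 for Ehd2 (r = 0.995 for the first), Gm21013, Dgkk and Cacna2d1 for Col5a3 (0.996), Txndc11, Ssr1 and Osr2 for Otogl (0.991), Pter, Pofut2 and Slc1a2 for Kcnk10 (0.991), Tnni1, Fgfr1op2 and Tnip3 for Plk2 (0.987), Olfml2a, Ccdc50 and Nts for Otx1 (0.987), Cab39, Tvp23b and Nabp1 for Slco4a1 (0.985), Casp4, Itpr1 and Sox5 for Slc13a3 (0.984), and Supt3, Slc25a17 and Rint1 for Dnah12 (0.979), each over 10 groups. Pearson's r takes no account of the size of a change, so genes that barely moved are among them. Group means of Supt3 were at least 25.4 CPM at 72 h without TGF-beta and at most 22.5 CPM elsewhere. For Dgkk these values were 9.02 and 0.0802 CPM.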

How the data were processed

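Per the labels' protocols, a stranded kit for polyadenylated RNA was sequenced as single reads. The tools named, per the submitters' processing notes, are STAR 2.7.3a, HTSeq 0.12.4 and DESeq2 1.30.1, and the build GRCm39. What the authors deposited are raw counts per gene and library, seen from the whole numbers and unequal totals. No strand setting for the counting was given, so reads of antisense genes may be included. Of 55414 identifiers, 52081 were matched to symbols in an annotation of another assembly. It was used only for names, exon lengths and a search for exons of other genes that overlap those of the members. That search found none on either strand, but it does not cover transcripts missing from that annotation. Entries that name no gene (for example 5.72% to 11.2% of reads in no gene) were left out.

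Counts were tested with edgeR 4.0.16 in R 4.3.3 (quasi-likelihood, TMM, filterByExpr with a minimum count of 10 and a minimum total of 15, all 29 libraries in 1 fit, no covariates), with Benjamini-Hochberg adjustment over 14375 genes and a threshold of 0.05. The SE of a log2 change is its size divided by the square root of F. Counting intervals are exact at 95%, floors are 3 counts over a group, and both cover counting error only. Likeness used group means of log2 CPM with a small constant added, over genes of at least 1 CPM in their highest group. The members and lists were chosen with earlier results of these data known. All members were named, with up to 4 called genes per list and the 3 most alike genes per member. The test of lactic acid in Treg was checked on simulated counts, with changes placed only in genes with high counts. Libraries were drawn independently there. The check thus did not cover changes at low counts or shared replicate numbers.

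Within a time point, libraries with the same number shared their deviations from the group mean (correlation 0.123 to 0.772 with 3 shared numbers). This was read as pairing at that time, but it was less clear at 72 h. For lactic acid in 72 h Tcon with TGF-beta the lowest was 0.179, against up to 0.245 between different numbers. For TGF-beta at 72 h these values were 0.245 and 0.335 with lactic acid, and 0.423 and 0.506 without it (2 shared numbers). In the other comparisons within a time point all same-numbered values were the higher. Between times the correlations were -0.0624 to 0.106 with 3 shared numbers. Other settings were the compared groups alone, RLE scaling, no filter, DESeq2 1.42.0, the replicate block and leaving out each library. Leaving out all 72 h replicate 1 libraries was chosen after seeing the data.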

Additional observations from a re-analysis of the deposited data

Results flagged for a closer look

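Dnah12 moved in opposite directions under the same contrast in different settings, with all libraries of 1 group on 1 side of the other group each time. The difference between settings was not tested. On the log2 scale of group means the ratio of 72 h to 24 h was -1.95 with TGF-beta and lactic acid and -2.13 with TGF-beta alone, against 2.13 with lactic acid alone and 2.08 with neither. These ratios use the 72 h libraries whose difference chose the gene, so their difference is largely fixed by the choice and nothing is read from it. With lactic acid against none at 72 h the ratio was 0.558 in Tcon with TGF-beta and -0.499 in Tcon without it, and neither of these was called. With TGF-beta against none, the contrast that chose the gene, the ratio was 0.525 at 24 h with lactic acid, and at 72 h -3.55 with lactic acid and -4.61 without. No group had 4 or more libraries, so single libraries were not examined for standing apart.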

How the results depend on the processing

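The log2 changes followed were those called in the main fit or with the replicate block. Of 501 alternative values for these 43 log2 changes of the 9 genes, 429 kept direction and side of the threshold, 39 lost the call, 30 gained it and 3 changed sign. Of the gains, 12 came from the block and follow from that selection. The 43 include the rises over time without TGF-beta, which are largely fixed by the choice of genes. The 429 are therefore not read as a measure of stability. The sign changes were Col5a3 and Kcnk10 with lactic acid at 72 h without TGF-beta, at 0.37 and 0.039 without replicate 1 with neither addition (ranges with 1 library left out -1.53 to 0.37 and -0.96 to 0.039), and Col5a3 at 0.0025 without all 72 h replicate 1 libraries. The replicate block called 2 genes for lactic acid at 24 h without TGF-beta, 5 at 72 h without TGF-beta, 4 at 72 h in Tcon with TGF-beta and 1 for Treg against Tcon with TGF-beta, and changed no call not given above except Col5a3 at 72 h against 24 h with TGF-beta (adjusted p = 0.00785). With no filter the counts were 2 for lactic acid at 72 h without TGF-beta, 4 at 72 h in Tcon with TGF-beta, 1 for Treg against Tcon with TGF-beta and 1 for the same with lactic acid. With the compared groups alone they were 1 in Tcon with TGF-beta (lactic acid effect), 0 in Treg, and 0 for Treg against Tcon with lactic acid. DESeq2 called 1 gene for lactic acid at 72 h without TGF-beta and 1 for Treg against Tcon with lactic acid, as RLE scaling did for the second. Without all 72 h replicate 1 libraries that last count was 0. The cause was not tested. With 1 library left out, counts ranged from 0 to 1 for lactic acid at 72 h without TGF-beta, 1 to 2 in Tcon with TGF-beta, 0 to 3 in Treg, 0 to 1 for Treg against Tcon with lactic acid, 4 to 5 for time with TGF-beta and 2 to 3 for time with TGF-beta and lactic acid, 9 to 9 for time without TGF-beta, and 0 to 0 for the rest. A lone library left in a group is assumed to vary like the others. All genes but Plk2 and Slco4a1 had under 1 CPM in most libraries with TGF-beta, where a few counts set the fold: the Treg against Tcon calls with lactic acid rest on 7 against 44 counts for Slc13a3 and 12 against 33 for Dnah12.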
